A study of Homo sapiens with 12 samples.

Results

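REH, a human B-cell lymphoblastic leukemia line that carries the ETV6-RUNX1 fusion, was compared after 48 h in cerebrospinal fluid with REH kept for 48 h in standard medium. The medium was RPMI with 10% fetal calf serum (called media here), and the fluid was human cerebrospinal fluid (CSF), for which the labels name no serum, donor or pool. Each group held 3 stranded mRNA sequencing libraries, named media 1 to 3 and CSF 1 to 3, and no group received a drug according to the labels, although the series title concerns methotrexate. The genes described are the 13460 of 60617 in the deposited table that reached at least 1 CPM (reads scaled so that each library sums to 1000000) in at least 3 of the 6 REH libraries. A second B-cell leukemia line, NALM-6, was grown in the same 2 fluids for 48 h with 3 libraries each and is used only to test whether a response differed between lines. Both lines are permanent cultures, so each group describes 1 line and not a set of patients. The labels do not say whether the 3 libraries of a group came from separate cultures, so a p-value here reflects variation among these libraries, and part of that variation may be technical.

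CSF bathes the brain and spinal cord, is a known site of relapse in lymphoblastic leukemia, and holds far less protein, lipid and amino acid than serum-containing medium. As general background, cells under stress use the transcription factor p53, whose targets halt division or start apoptosis, and the integrated stress response, in which ATF4 raises genes for amino acid supply. Through the inhibitor p21 and the repressor complex DREAM, p53 is also known to lower genes of mitosis.

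The 6 REH libraries held 23412869 to 30236278 reads, and reads were found for 21250 to 22486 genes in each. CSF 3 stood apart from the other 5 libraries. Ribosomal protein genes took 10.3% of its reads, against 5.67% to 6.39% elsewhere, and the mean exonic length of the genes read was 5.34 kb, against 6.19 to 6.34 kb. Relative to the mean of CSF 1 and CSF 2, the median of the 4470 genes with the shortest exons lay higher by a log2 of 0.27 in CSF 3, and that of the 4468 genes with the longest lay at -0.49. The median standard deviation (SD) of a gene was 0.0739 on the log2 scale among media libraries, 0.257 among CSF libraries and 0.124 between CSF 1 and CSF 2. The main counts over all tested genes and those over gene lists are therefore given with and without CSF 3. The part of RNA quality in them was not tested. Promoter matches were counted only for the calls made with all 6 libraries.

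**Figure D1:**
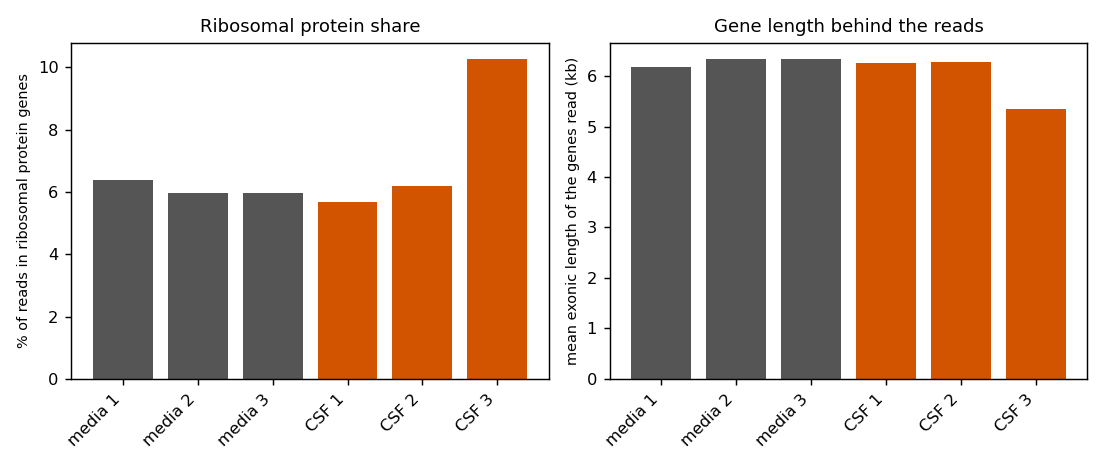
Share of reads in ribosomal protein genes (left panel, percent) and mean exonic length of the genes read (right panel, kb), 1 bar for each of the 6 REH libraries. CSF 3 lies at 10.3% and 5.34 kb, outside the range of 5.67% to 6.39% and 6.19 to 6.34 kb of the other 5 libraries.

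Defining genes of the B-lymphoblast were present in both fluids. Of 10 such markers, 9 reached 1 CPM, and VPREB1, which encodes part of the surrogate light chain of the pre-B receptor, stayed under 0.0704 CPM. CD79A, a signalling chain of the B-cell receptor, was at 329, 312 and 304 CPM in media and 336, 381 and 481 CPM in CSF. In the limma test described below, 1 of the 9 tested markers, CD22, was higher in CSF and 4, EBF1, DNTT, MME and IGLL1, were lower. Without CSF 3, 1 was higher and 5 were lower (ranges 0 to 1 and 2 to 5 with 1 library left out). The median log2 difference of the 9 was -0.81, or -0.57 without CSF 3, and CD79A was not called. The summed level of the 10 markers was 3524 to 3570 CPM in media and 2285 to 2496 CPM in CSF, so the groups did not overlap. In bulk RNA, fewer cells of a type and less RNA per cell cannot be told apart, here or in any result that follows. Of 28 markers of other cells that CSF or a culture could hold, 11 had no read and 4 reached 1 CPM in any library (TRAC, CSF1R, LYZ and MBP). CD3D, S100A8, S100A9, FCGR3A, TTR, AQP4, CDH5 and the 4 red cell genes listed (HBA1, HBA2, HBB and ALAS2) had 0 reads in all 6 libraries. The sum of the 7 T-cell markers was 21.4 to 24.4 CPM in media and 75.2 to 110.1 CPM in CSF, nearly all of it from TRAC, the T-cell receptor alpha constant region, at 21.7, 21.2 and 24.1 CPM in media and 76.9, 74.6 and 109.8 CPM in CSF. The myelin gene MBP was at 31.5, 29.5 and 33.5 CPM in media and 28.5, 25.5 and 14.3 CPM in CSF. The sum of the 7 myeloid markers was 4.796 to 5.34 CPM in media and 17.3 to 19.0 CPM in CSF, mostly from the receptor gene CSF1R, which overlaps a pseudogene.

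Genes higher in CSF outnumbered those lower. Higher in CSF were 2156 genes (16% of 13460) and lower were 513 (3.81%), 2669 in all (19.8%), by limma on log2(CPM + 1) with an adjusted p under 0.05. Of these, 729 rose and 75 fell by at least 1 on the log2(CPM + 1) scale. Genes with low CPM can change by more than 2-fold and miss that limit. In every called gene the 3 CSF values and the 3 media values did not overlap, as was also the case for 29.4% of all tested genes on the higher side and 15% on the lower side. Without CSF 3, 4032 genes were higher (30%) and 1575 lower (11.7%, 41.7% together), and 2666 of the 2669 calls were made in the same direction. The balance between rises and falls depended on the scaling. With median-of-ratios scaling 1642 were higher (12.2%) and 1083 lower (8.05%, 20.2% together), or 2926 (21.7%) and 2948 (21.9%, 43.6% together) when CSF 3 was also left out. The numbers were 1686 and 949 with TMM scaling, 1280 and 970 with quantile normalization, 1820 (13.5%) and 775 (5.76%, 19.3% together) with edgeR on the recovered reads, and 2161 and 1424 with DESeq2. The median log2 difference of all tested genes was 0.08, or 0.10 without CSF 3 and -0.04 with median-of-ratios scaling, and list medians below are to be read against these values. With only 5 libraries, leaving out media 1, media 2 or media 3 left 1291, 1229 or 1159 calls, and leaving out CSF 2 left 1584. For each gene list, the counts of rises and falls are followed by those without CSF 3 and by their ranges over the 6 fits that each left out 1 library. Every list count is to be read against 16% higher and 3.81% lower over all tested genes, or 30% and 11.7% without CSF 3.

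**Figure D2:**
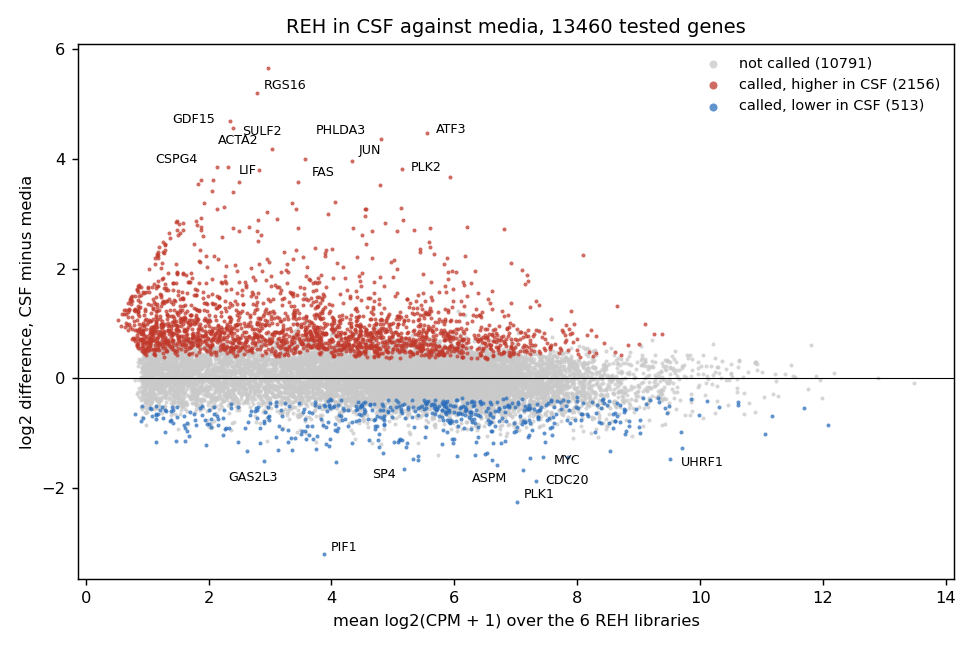
Difference between CSF and media for each of the 13460 tested genes (vertical axis, log2(CPM + 1), CSF minus media) against its mean level over the 6 REH libraries (horizontal axis, log2(CPM + 1)). The 2156 genes called higher (red) include RGS16 at a log2 of 5.20, and the 513 called lower (blue) reach -3.20 for PIF1.

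The genes with the largest rise encoded secreted factors, cell surface proteins and p53 targets. RGS16 (ENSG00000143333, chromosome 1, 182598623 to 182604408 on GRCh38), whose product shuts off G proteins, was at 0.209, 0.106 and 0.0992 CPM in the media libraries and 38.7, 44.3 and 39.4 CPM in the CSF libraries (log2 5.20, SE 0.12, adjusted p = 2.51e-06). It was close to absent in media and similar in all 3 CSF libraries. GDF15 (ENSG00000130513, chromosome 19, 18374731 to 18389176), a stress-induced cytokine of the TGF-beta family, had 1 read over the 3 media libraries and 18.8, 26.7 and 30.8 CPM in CSF, a ratio of 2237 with an exact 95% counting interval of 401 to 88410 (log2 4.68, adjusted p = 2.21e-05). The interval covers counting error only.

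Further genes rose from a few CPM or less to levels between 16 and 219 CPM on average. ATF3 (chromosome 1, 212565334 to 212620777), a stress-induced repressor of the ATF family, was at 9.18, 8.87 and 8.83 CPM in media and 216, 219 and 222 CPM in CSF (log2 4.47, SE 0.10, adjusted p = 2.51e-06). The 3 CSF values of ATF3, CSF 3 included, lay within a few CPM of each other. SULF2, a sulfatase that edits heparan sulfate and that overlaps NCOA3, was at 0.0349, 0.0704 and 0.165 CPM in media and 24.02, 22.2 and 27.8 CPM in CSF, and CSPG4, a cell surface proteoglycan, at 0.0698, 0.176 and 0.232 CPM in media and 14.9, 22.4 and 11.5 CPM in CSF (log2 4.55 and 3.85). LIF, a cytokine of the interleukin-6 family, was at 0.244, 0.457 and 0.265 CPM in media and 18.7, 18.6 and 16.6 CPM in CSF (log2 3.85, adjusted p = 1.34e-05). FAS (chromosome 10, 88990582 to 89015785), the death receptor gene, was at 1.99, 1.97 and 1.98 CPM in media and 53.9, 43.5 and 42.1 CPM in CSF (log2 3.99, adjusted p = 1.35e-05). ACTA2, which encodes smooth muscle actin, overlaps FAS on the other strand and rose with it (log2 4.17), and reads of the pair may have been shared.

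**Figure D3:**
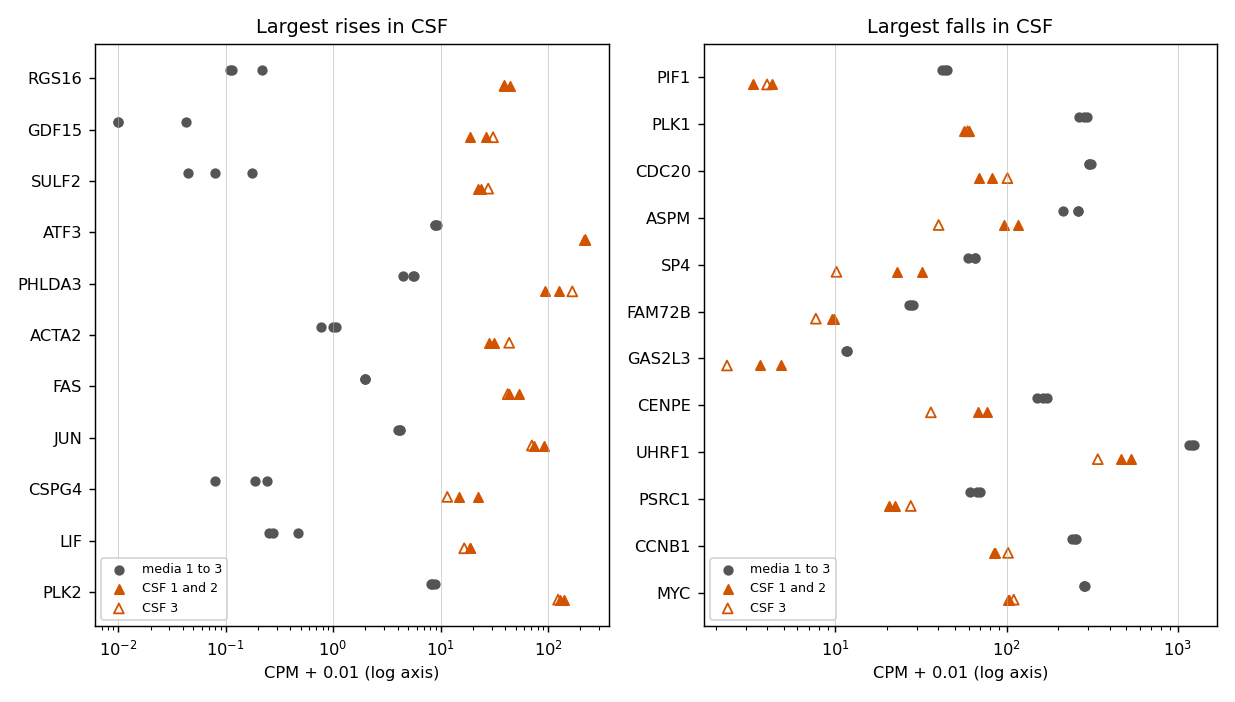
Level in each REH library (horizontal axis, CPM + 0.01 on a log axis, circles for media and triangles for CSF) of 23 protein-coding genes, 11 with the largest rises and 12 with the largest falls. No CSF library overlaps a media library for any of the 23 genes, which the choice of genes fixes. CSF 3 (open triangles) is the lowest library for ASPM (40.1 CPM) and SP4 (10.1 CPM).

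The largest falls were in genes of mitosis. PIF1 (ENSG00000140451, chromosome 15, 64815632 to 64825668), a DNA helicase expressed in dividing cells, was at 43.9, 44.8 and 41.7 CPM in media and 3.29, 4.27 and 3.97 CPM in CSF (log2 -3.20, SE 0.12, adjusted p = 2.21e-05). PLK1 (ENSG00000166851, chromosome 16, 23677656 to 23690367), the kinase that drives mitotic entry and spindle assembly, was at 293, 283 and 267 CPM in media and 56.3, 60.2 and 59.2 CPM in CSF (log2 -2.24, adjusted p = 2.98e-05). CDC20 (ENSG00000117399, chromosome 1, 43358955 to 43363203), the activator of the anaphase-promoting complex, was at 311, 303 and 302 CPM in media and 69.4, 82.1 and 101 CPM in CSF (log2 -1.86, adjusted p = 0.000345). The groups of all 3 genes lay far apart, and CDC20 was highest in CSF 3 among the CSF libraries. The cyclin gene CCNB1 fell by 1.44 and the spindle gene PSRC1 by 1.46 on the log2 scale. MYC, the growth-promoting transcription factor, was at 287, 284 and 282 CPM in media and 102, 103 and 110 CPM in CSF (log2 -1.43, SE 0.10, adjusted p = 0.000176). UHRF1, which copies DNA methylation to the new strand after replication, was at 1218, 1246 and 1170 CPM in media and 464, 534 and 341 CPM in CSF (log2 -1.46, adjusted p = 0.00163). It was lowest in CSF 3, and its log2 difference was -1.28 without that library.

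Other large falls leaned on CSF 3. ASPM, a spindle pole gene, was at 214, 263 and 262 CPM in media and 117, 96.6 and 40.1 CPM in CSF, and the transcription factor gene SP4 at 59.3, 65.5 and 65.4 CPM in media and 32.1, 22.9 and 10.1 CPM in CSF. Their log2 differences moved from -1.66 and -1.64 to -1.20 and -1.20 without CSF 3. The calls of ASPM and SP4 were lost without media 1, 2 or 3 or CSF 2 (adjusted p up to 0.0831, for ASPM). The kinetochore motor gene CENPE (-1.48, or -1.15 without CSF 3) and the microtubule linker gene GAS2L3 (-1.50, or -1.29) also lay lowest in CSF 3. FAM72B, at 27.6 ± 0.774 CPM in media and 9.02 ± 1.18 CPM in CSF, has near-identical copies and overlaps SRGAP2C, so its value is uncertain.

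Of 40 mitosis and G2/M genes, 0 rose and 22 fell (3 and 31 without CSF 3, ranges 0 to 3 and 13 to 31), against 16% and 3.81% of all tested genes, and their median log2 difference was -0.80. The 3 that rose without CSF 3 were KIF2C, FOXM1 and CDK1, and the median was then -0.66. Beyond those already named, AURKA, a centrosome kinase, went from 120.2 ± 3.76 CPM in media (mean ± SD, n = 3, as for the values in this form that follow) to 56.6 ± 2.42 CPM (log2 -1.07, adjusted p = 0.000666) and BUB1, a spindle checkpoint kinase, from 265 ± 2.52 to 119 ± 16.7 CPM (log2 -1.16, adjusted p = 0.00133). The kinase gene CDK1, which PLK1 helps to activate, was not called, with 199, 191 and 203 CPM in media and 238, 218 and 238 CPM in CSF (log2 0.23, adjusted p = 0.167). FOXM1, a transcription factor of this gene group, was not called either (213, 219.5 and 215 CPM in media and 269, 278 and 238 CPM in CSF, log2 0.27). AURKA, BUB1, KIF2C, CDK1 and FOXM1 were chosen after their values were seen.

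Promoter sequence was examined because the genes of mitosis moved together. The windows are those of RefSeq on GRCh38.p14, from 250 bases before to 50 bases after the annotated start. A gene with more than 1 window was counted as matched if any of them matched, and windows without a match are not shown. They were searched on both strands for the cell cycle element known as CHR (TTTGAA), for the CCAAT box (CCAAT) that the factor NF-Y binds, and, for stress response genes described further on, for the ATF4 element known as CARE (TGATGNAA). The 3 mitosis genes with the deepest fall are shown first, written 5′ to 3′ on the strand of the gene, with CHR and CCAAT matches in capitals and no base shared between matches. PIF1 (chr15:64825598-64825897, minus strand) held 1 CHR and 2 CCAAT matches, PLK1 (chr16:23678639-23678938, plus strand) 1 of each, and CDC20 (chr1:43358731-43359030, plus strand) 2 of each.
PIF1: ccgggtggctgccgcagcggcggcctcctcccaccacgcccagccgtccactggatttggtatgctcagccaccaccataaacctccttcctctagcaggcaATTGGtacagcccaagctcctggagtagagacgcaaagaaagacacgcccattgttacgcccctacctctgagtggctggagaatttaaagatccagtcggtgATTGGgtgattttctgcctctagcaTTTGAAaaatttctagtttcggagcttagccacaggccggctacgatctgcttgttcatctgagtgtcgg
PLK1: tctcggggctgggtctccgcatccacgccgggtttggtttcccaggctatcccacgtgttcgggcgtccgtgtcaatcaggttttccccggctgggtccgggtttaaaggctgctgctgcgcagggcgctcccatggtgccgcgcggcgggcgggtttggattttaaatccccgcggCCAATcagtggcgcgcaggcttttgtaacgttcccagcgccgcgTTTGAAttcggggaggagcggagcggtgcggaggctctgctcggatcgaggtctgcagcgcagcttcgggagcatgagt
CDC20: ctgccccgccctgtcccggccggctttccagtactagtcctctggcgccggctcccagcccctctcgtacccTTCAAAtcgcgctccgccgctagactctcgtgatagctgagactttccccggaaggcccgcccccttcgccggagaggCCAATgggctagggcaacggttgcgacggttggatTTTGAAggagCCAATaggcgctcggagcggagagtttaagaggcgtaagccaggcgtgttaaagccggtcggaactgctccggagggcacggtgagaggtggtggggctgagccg

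Of the 22 mitosis genes that fell, 17 had a window, of which 12 (70.6%) held a CHR match, 16 (94.1%) a CCAAT match and 12 (70.6%) both. Among the 15 uncalled members with a window, 9 held CHR, 12 CCAAT and 7 both. Over the 9561 tested genes with a window the shares were 13.5%, 43.5% and 5.64%, and over all 35116 windows in the RefSeq table they were 15.2%, 34.6% and 5.90%. A match is a description of these letters and not of a bound site.

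**Figure D4:**
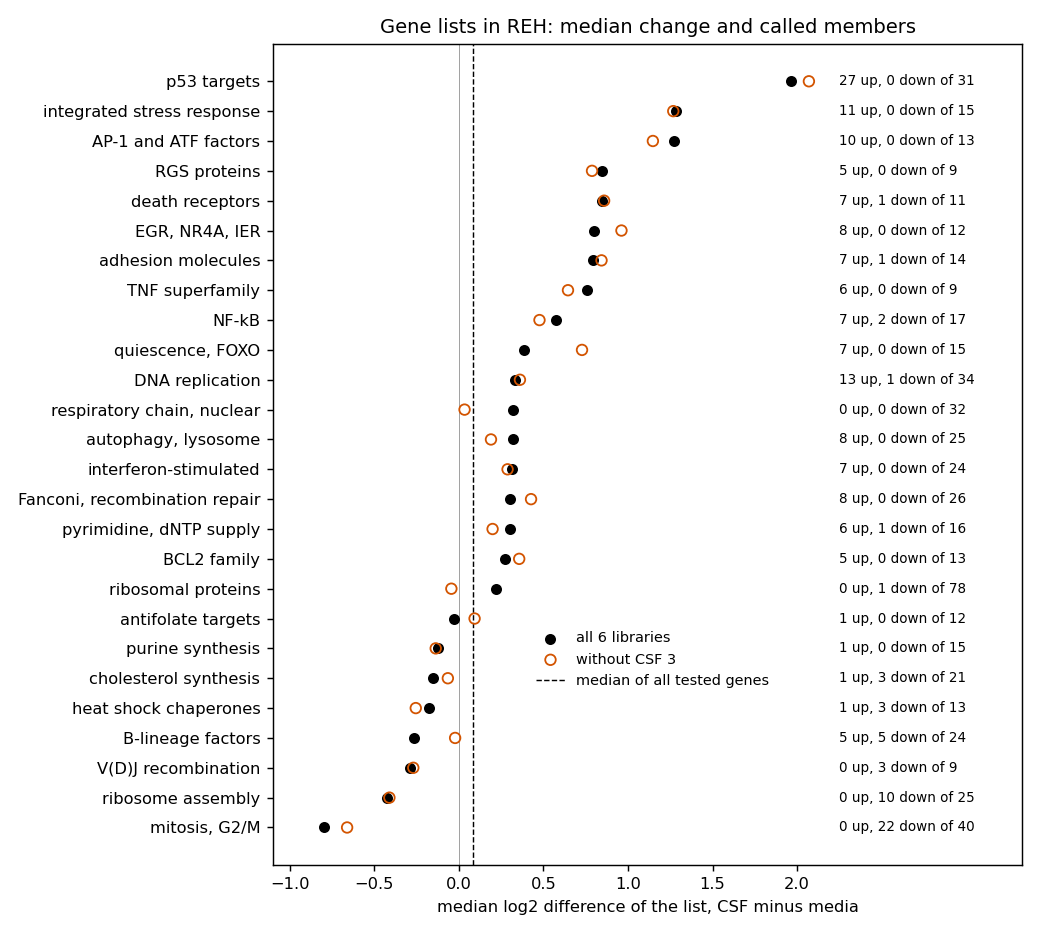
Median log2 difference (horizontal axis, CSF minus media) of the tested members of each gene list named at the left, with all 6 libraries (filled) and without CSF 3 (open), the median of all tested genes (dashed line) and the number of members called. Among the lists plotted, the p53 targets have the highest median (1.96 over 31 genes), and the genes of mitosis the lowest (-0.80 over 40 genes).

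p53 target genes rose together. Of 31 tested, 27 rose and 0 fell (29 and 0 without CSF 3, ranges 26 to 29 and 0 to 0), against 16% and 3.81% of all tested genes. Their median log2 difference was 1.96. The cell cycle inhibitor gene CDKN1A, which encodes p21, was at 124, 124 and 123 CPM in media and 526, 604 and 648 CPM in CSF (log2 2.25, SE 0.12, adjusted p = 4.92e-05), with groups far apart. An RNA gene, DINOL, overlaps it. PHLDA3, an inhibitor of the kinase AKT, was at 5.62, 5.56 and 4.47 CPM in media and 94.3, 126 and 168 CPM in CSF, and FDXR, a mitochondrial reductase, at 16.9, 16.6 and 14.8 CPM in media and 154, 227 and 290.2 CPM in CSF (log2 4.36 and 3.67). For both genes CSF 3 was the highest library. The polo-like kinase gene PLK2, unlike its mitotic relative PLK1, was higher in CSF, at 8.83, 8.37 and 8.07 CPM in media and 141, 129 and 124 CPM in CSF (log2 3.81, adjusted p = 7.87e-06). Of the 4 members not called, MDM2, which encodes the ligase that degrades p53, was at 265, 267 and 276 CPM in media and 409, 368 and 246 CPM in CSF (log2 0.31, adjusted p = 0.298), and CSF 3 lay below the media libraries while CSF 1 and CSF 2 lay above them. Without CSF 3 its log2 difference was 0.53 and limma called it (adjusted p = 0.000241, up to 0.684 over its other alternatives). GADD45B (log2 0.49) and POLK (log2 -0.36) were not called either, and these 3 were named after their values were seen.

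Among cell death genes, some activators of apoptosis and some death receptors rose. Of 13 BCL2 family genes 5 rose and 0 fell (7 and 1 without CSF 3, ranges 4 to 7 and 0 to 1), with a median of 0.27. BBC3, which encodes the p53-induced activator PUMA, was at 7.61, 6.54 and 7.24 CPM in media and 74.03, 98.4 and 109 CPM in CSF (log2 3.53, adjusted p = 3.41e-05). BAX, which opens the mitochondrial outer membrane, went from 78.9 ± 5.65 to 279 ± 80.6 CPM and PMAIP1, which encodes NOXA, from 25.8 ± 1.67 to 89.8 ± 8.90 CPM (log2 1.77 and 1.76). The protective members BCL2L1 (log2 -0.01) and MCL1 (-0.12) were not called, and BCL2 was at 213, 231 and 232 CPM in media and 176, 174 and 92.4 CPM in CSF (log2 -0.67, adjusted p = 0.106). These 3 were chosen after their values were seen. Of 11 death receptor pathway genes 7 rose and 1 fell (8 and 1 without CSF 3, ranges 6 to 8 and 0 to 1), with a median of 0.84. Besides FAS, the receptor genes for TRAIL rose. TNFRSF10B went from 68.3 ± 4.12 to 274 ± 53.2 CPM, TNFRSF10A from 5.29 ± 0.312 to 19.4 ± 5.45 CPM, and TNFRSF10D, a decoy receptor, from 6.34 ± 1.12 to 25 ± 3.22 CPM (log2 1.97, 1.66 and 1.83).

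Immediate early transcription factors rose in several families. Of 13 AP-1 and ATF genes 10 rose and 0 fell (11 and 0 without CSF 3, ranges 9 to 11 and 0 to 0), with a median of 1.27. JUN, the central AP-1 subunit, was at 4.15, 3.98 and 4.17 CPM in media and 73.7, 92.2 and 70.8 CPM in CSF (log2 3.96, adjusted p = 1.43e-05). FOSL1 went from 0.442 ± 0.222 to 4.50 ± 0.881 CPM and BATF, an AP-1 factor of lymphocytes, from 0.555 ± 0.263 to 5.14 ± 2.49 CPM (log2 1.93 and 1.92). Of 12 genes of the EGR, NR4A and IER families and their kin 8 rose and 0 fell (9 and 0 without CSF 3, ranges 6 to 9 and 0 to 0), with a median of 0.80. IER5 and the nuclear receptor gene NR4A1 rose by 2.09 and 1.82 on the log2 scale. EGR1, a zinc finger factor induced by MAP kinase signalling, was not called, at 28.3, 28.4 and 37.3 CPM in media and 43, 43.2 and 37.2 CPM in CSF, where CSF 3 and media 3 nearly coincide (log2 0.39, adjusted p = 0.109). Of 9 DUSP and Sprouty genes, which dampen MAP kinases, 4 rose and 0 fell (7 and 0 without CSF 3, ranges 0 to 7 and 0 to 0). DUSP10 had the largest difference (log2 0.82). The call of DUSP10 was lost without media 1 or 3 or CSF 2 (log2 0.71 to 0.98 over the fits without 1 library, adjusted p up to 0.0803).

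Most genes listed for the ATF4 and CHOP stress response rose, although the RNA of ATF4 itself was not called. Which factor raised these genes was not tested. Of 15 genes 11 rose and 0 fell (12 and 1 without CSF 3, ranges 9 to 12 and 0 to 1), with a median of 1.28. SESN2 and DDIT4, which restrain the growth kinase mTORC1, rose. SESN2 was at 26.97, 28.4 and 26.9 CPM in media and 185, 206 and 181 CPM in CSF, and DDIT4 was at 42.8, 41.3 and 43.8 CPM in media and 263, 291 and 305 CPM in CSF (log2 2.75 and 2.72). PPP1R15A, which encodes the phosphatase subunit GADD34, went from 18.2 ± 2.07 to 97.99 ± 12.7 CPM (log2 2.36, adjusted p = 9.71e-05). DDIT3, which encodes CHOP and overlaps MARS and MBD6, went from 5.90 ± 1.09 to 31.99 ± 10.4 CPM (log2 2.23, adjusted p = 0.00104). ATF4 was at 633, 618 and 596 CPM in media and 444, 524 and 694 CPM in CSF, with overlapping groups (log2 -0.18, adjusted p = 0.490), and the asparagine synthetase gene ASNS, a classic ATF4 target, rose from 1.10 ± 0.242 to 1.98 ± 0.280 CPM (log2 0.51, adjusted p = 0.0438). The call of ASNS was lost without media 1, 2 or 3 or CSF 1 or 2 (log2 0.44 to 0.60 over the fits without 1 library, adjusted p up to 0.169). ATF4 and ASNS, and CHAC1, were named after their values were seen. Of the 11 risers with a promoter window, 4 (36.4%) held a CARE match, against 2.62% of tested genes with a window and 3.62% of all windows. Of the 3 uncalled members with a window, 0 held one. ATF3, shown next, was named from the AP-1 and ATF list. Its window lies at the upstream end of the gene, which runs to 212620777. Windows of ATF3 (chr1:212565157-212565456, plus strand) and CHAC1 (chr15:40953221-40953520, plus strand), the latter encoding a glutathione-degrading enzyme that rose from 13.5 ± 0.309 to 39.2 ± 2.49 CPM, are shown with the CARE match in capitals, on the reverse strand in CHAC1.
ATF3: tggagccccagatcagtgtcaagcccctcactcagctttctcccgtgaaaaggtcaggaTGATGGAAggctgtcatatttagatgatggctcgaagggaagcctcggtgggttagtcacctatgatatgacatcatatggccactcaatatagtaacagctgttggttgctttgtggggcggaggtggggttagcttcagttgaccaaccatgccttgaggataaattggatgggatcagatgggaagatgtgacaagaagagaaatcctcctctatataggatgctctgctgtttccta
CHAC1: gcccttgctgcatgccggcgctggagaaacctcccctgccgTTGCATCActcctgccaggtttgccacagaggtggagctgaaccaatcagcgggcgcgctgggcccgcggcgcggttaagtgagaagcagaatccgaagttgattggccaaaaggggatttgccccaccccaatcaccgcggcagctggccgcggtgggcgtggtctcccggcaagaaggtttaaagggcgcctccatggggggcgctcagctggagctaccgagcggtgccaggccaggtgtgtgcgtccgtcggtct

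Genes that supply amino acids moved in a mixed way. Of 14 amino acid transporter genes 4 rose and 0 fell (7 and 2 without CSF 3, ranges 2 to 7 and 0 to 2), among them SLC1A4, a neutral amino acid carrier, from 38.6 ± 1.35 to 83.6 ± 10.3 CPM and SLC7A3, a cationic amino acid carrier, from 33.04 ± 0.723 to 65.2 ± 3.37 CPM (log2 1.09 and 0.96). Of 20 tRNA synthetase genes 1 rose and 2 fell (3 and 8 without CSF 3, ranges 0 to 3 and 0 to 8). With DESeq2, 8 of the 20 fell, against 1424 of 13460 tested genes. With median-of-ratios scaling without CSF 3, 13 of the 20 fell, against 21.9% of all tested genes. SARS rose by 0.76, and IARS and MARS fell by 0.54 and 0.35 on the log2 scale. The calls of SARS and IARS were lost without media 1, 2 or 3 or CSF 2 (adjusted p up to 0.177, for IARS). The call of MARS was lost without media 1, 2 or 3 or CSF 1 or 2 (log2 -0.33 to -0.38 over the fits without 1 library, adjusted p up to 0.212). The call of PSPH was lost without media 1, 2 or 3 (log2 0.51 to 0.61 over the fits without 1 library, adjusted p up to 0.0763). Of 13 genes of serine synthesis and one-carbon metabolism 5 rose and 2 fell (6 and 3 without CSF 3, ranges 0 to 7 and 1 to 3). MAT2A, which makes the methyl donor S-adenosylmethionine, went from 614 ± 13.1 to 317 ± 19.5 CPM (log2 -0.95, adjusted p = 0.00121), while PSPH, the last enzyme of serine synthesis, went from 50.2 ± 0.940 to 75.2 ± 5.76 CPM (log2 0.57).

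Methotrexate blocks the use of folate in nucleotide synthesis, and of 12 genes of antifolate action 1 rose and 0 fell (2 and 1 without CSF 3, ranges 1 to 2 and 0 to 1), a share not above that of all genes. The riser was the exporter gene ABCG2, at 0.977, 0.950 and 0.794 CPM in media and 2.74, 3.08 and 2.87 CPM in CSF, with groups apart (log2 1.03, SE 0.11, adjusted p = 0.00126). TYMS, the thymidylate synthase gene, was at 510.2, 477 and 484 CPM in media and 538, 526 and 689 CPM in CSF (log2 0.24, adjusted p = 0.251). SLC19A1, which encodes the carrier that takes up reduced folate and methotrexate, was at 126, 122 and 116 CPM in media and 97.1, 123 and 130.2 CPM in CSF, with overlapping groups (log2 -0.06). FPGS, which adds the glutamates that keep the drug in cells, was at 159, 141 and 138 CPM in media and 103, 135 and 145 CPM in CSF (log2 -0.20), and GGH, which removes them, at 53.1, 52.7 and 54.4 CPM in media and 66.1, 58.1 and 86.5 CPM in CSF (log2 0.37, adjusted p = 0.149). The purine enzymes ATIC and GART (log2 -0.12 and -0.26) and the exporters ABCC1, ABCC4 and ABCC5 (log2 -0.17, -0.39 and 0.02) were not called with all 6 libraries. Without CSF 3 limma called ATIC lower (log2 -0.20, adjusted p = 0.0325). With median-of-ratios scaling without CSF 3, 2 of the 12 genes rose and 4 fell, against 21.7% and 21.9% of all tested genes.

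Of 15 purine synthesis genes 1 rose and 0 fell (2 and 7 without CSF 3, ranges 1 to 2 and 0 to 7), and the riser was ADSSL1, from 2.03 ± 0.213 to 4.72 ± 0.332 CPM (log2 0.92). Of 8 ABC exporter genes 1 rose and 0 fell (2 and 0 without CSF 3, ranges 1 to 2 and 0 to 0), again ABCG2. Of 16 genes of pyrimidine and deoxynucleotide supply 6 rose and 1 fell (8 and 1 without CSF 3, ranges 2 to 8 and 0 to 1), with a median of 0.30. TK1, the S-phase thymidine kinase, went from 156 ± 5.58 to 373 ± 92.5 CPM (log2 1.22, adjusted p = 0.00403), and RRM2, the limiting subunit of ribonucleotide reductase, from 458 ± 6.78 to 809 ± 70.4 CPM (log2 0.82, adjusted p = 0.00289).

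Some genes of DNA replication and repair were higher while those of mitosis were lower. Of 34 replication genes 13 rose and 1 fell (23 and 1 without CSF 3, ranges 4 to 23 and 0 to 1), with a median of 0.33. CDC6, which loads the replicative helicase, was at 158, 160.1 and 160 CPM in media and 299.8, 307 and 332 CPM in CSF (log2 0.97, SE 0.10, adjusted p = 0.000977). The DNA ligase gene LIG1 rose by 0.87 and CHAF1B, a histone loader that overlaps MORC3, by 0.87. MCM6, a helicase subunit and the gene that fell, was at 409, 399 and 402 CPM in media and 293, 298 and 295 CPM in CSF (log2 -0.45, adjusted p = 0.0172), and was named after its values were seen. The call of MCM6 was lost without media 1, 2 or 3 (log2 -0.44 to -0.46 over the fits without 1 library, adjusted p up to 0.115). Of 26 Fanconi and homologous recombination genes 8 rose and 0 fell (21 and 0 without CSF 3, ranges 3 to 21 and 0 to 0). EXO1, a nuclease of mismatch repair and recombination, went from 83.1 ± 1.87 to 169.5 ± 16.4 CPM (log2 1.02, adjusted p = 0.00131). Of 14 histone genes 0 rose and 4 fell (1 and 6 without CSF 3, ranges 0 to 1 and 3 to 6). H1F0, the linker histone of resting cells, went from 82.1 ± 2.75 to 41.5 ± 6.09 CPM, and HIST1H2BK, which has near-identical copies, from 3.56 ± 0.430 to 1.08 ± 0.212 CPM. Of 18 epigenetic enzyme genes 1 rose and 1, UHRF1, fell (5 and 2 without CSF 3, ranges 0 to 5 and 1 to 2), and CSF 3 lay at a median log2 of -0.79 from its replicates over this list.

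**Figure D5:**
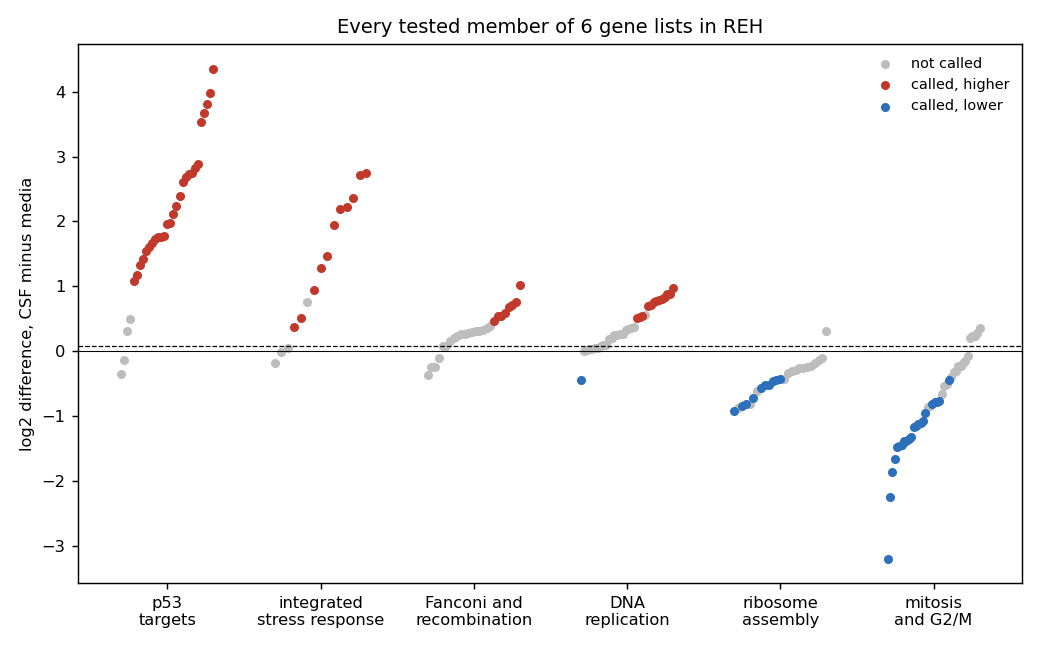
Log2 difference (vertical axis, CSF minus media) of every tested member of 6 gene lists, 1 point for each gene, coloured by whether limma called it higher or lower, with the median of all tested genes as a dashed line. The p53 targets reach 4.36 for PHLDA3, whereas genes of mitosis reach -3.20 for PIF1.

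Some genes that slow the cell cycle were higher in CSF. Of 6 CDK inhibitor genes 4 rose and 0 fell (4 and 1 without CSF 3, ranges 2 to 4 and 0 to 1), with a median of 0.75. Beside CDKN1A, CDKN2D, which encodes p19, went from 28.3 ± 1.89 to 61.4 ± 13.96 CPM and CDKN1C, which encodes p57, from 7.33 ± 0.438 to 16.1 ± 4.33 CPM (log2 1.07 and 1.01). Of 15 genes linked to quiescence and FOXO factors 7 rose and 0 fell (10 and 0 without CSF 3, ranges 7 to 10 and 0 to 0). PIK3IP1, an inhibitor of PI3 kinase, was at 2.13, 1.09 and 2.08 CPM in media and 19.99, 19.95 and 23.6 CPM in CSF (log2 3.02, adjusted p = 0.000103). The antiproliferative genes BTG2 and BTG1 went from 17.8 ± 0.343 to 124 ± 1.93 CPM and from 47.8 ± 1.91 to 143 ± 3.83 CPM. Of 15 G1 cyclin, CDK and RB genes 4 rose and 2 fell (6 and 2 without CSF 3, ranges 2 to 6 and 0 to 2). The cyclin E genes CCNE1 and CCNE2, which start S phase, rose by 1.24 and 1.14 on the log2 scale. RBL1, a pocket protein of the RB family, fell by 0.78. The call of CDKN1C was lost without media 2 or 3 or CSF 2 (log2 0.83 to 1.21 over the fits without 1 library, adjusted p up to 0.0597). The call of RBL1 was lost without media 1, 2 or 3 or CSF 2 (log2 -0.56 to -0.98 over the fits without 1 library, adjusted p up to 0.141).

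MYC was lower, as were some genes that assemble ribosomes, and calls among ribosomal protein genes depended on the scaling. Of 25 ribosome assembly genes 0 rose and 10 fell (0 and 23 without CSF 3, ranges 0 to 0 and 1 to 23), with a median of -0.42. DKC1, which encodes dyskerin, a pseudouridine synthase of ribosomal RNA, was at 240.3, 233 and 237 CPM in media and 141, 144 and 146 CPM in CSF (log2 -0.72, SE 0.10, adjusted p = 0.00271). POLR1B, a subunit of RNA polymerase I, was at 103, 106 and 109 CPM in media and 66.6, 64.8 and 39.2 CPM in CSF (log2 -0.92, or -0.68 without CSF 3). Of 10 genes of the MYC network 1 rose and 2 fell (3 and 2 without CSF 3, ranges 0 to 3 and 1 to 2). MXD1, which competes with MYC for its partner MAX, went from 4.71 ± 0.595 to 8.22 ± 1.32 CPM (log2 0.69). Of 78 ribosomal protein genes 0 rose and 1 fell (2 and 6 without CSF 3, ranges 0 to 2 and 0 to 6), RPL36A (log2 -0.50). With median-of-ratios scaling without CSF 3, 34 of the 78 fell and 0 rose, against 21.9% and 21.7% of all tested genes in that fit. The call of POLR1B was lost without media 1, 2 or 3 (log2 -0.68 to -1.05 over the fits without 1 library, adjusted p up to 0.0898). The calls of MXD1 and RPL36A were lost without media 1, 2 or 3 or CSF 2 (adjusted p up to 0.127, for RPL36A). The median of the ribosomal protein genes was 0.22, but -0.04 without CSF 3, the library in which this list lay 0.82 above its replicates on the log2 scale. The 32 nuclear respiratory chain genes had 0 calls by limma, 0 by edgeR and 0 by DESeq2, with 3 at an unadjusted p under 0.05. Without CSF 3 limma called 2 higher and 4 lower, and the median moved from 0.32 to 0.03. With median-of-ratios scaling as well, 0 were higher and 11 lower, against 21.7% and 21.9% of all tested genes. Of 13 mitochondrially encoded genes 0 rose and 1 fell (0 and 1 without CSF 3, ranges 0 to 0 and 1 to 6), MT-ND6, at 53.8, 45.4 and 56.2 CPM in media and 29.9, 21.1 and 19.5 CPM in CSF (log2 -1.13, adjusted p = 0.00588).

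Cytokine and receptor genes of the TNF and NF-kB pathways rose in part. Of 9 TNF superfamily genes 6 rose and 0 fell (7 and 0 without CSF 3, ranges 4 to 7 and 0 to 0), with a median of 0.76. TNFSF9, the ligand of the T-cell receptor 4-1BB, was at 2.34, 1.90 and 2.35 CPM in media and 35.6, 34.5 and 41.2 CPM in CSF (log2 3.58, adjusted p = 1.84e-05). TNFSF4, the OX40 ligand gene, and CD70, the CD27 ligand gene, rose by 2.48 and 2.31 on the log2 scale. Of 17 NF-kB subunit and feedback genes 7 rose and 2 fell (11 and 2 without CSF 3, ranges 3 to 11 and 0 to 2). RELB and NFKB2, which form the non-canonical NF-kB dimer, rose by 1.27 and 1.04. The 2 that fell were feedback inhibitors. NFKBIA, named after its value was seen, went from 71.03 ± 1.57 to 46.4 ± 6.46 CPM and TNFAIP3, which encodes the deubiquitinase A20, from 364 ± 12.4 to 230.4 ± 46.5 CPM (log2 -0.61 and -0.68). The calls of NFKBIA and TNFAIP3 were lost without media 1, 2 or 3 or CSF 2 (adjusted p up to 0.121, for TNFAIP3).

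Of 6 tested chemokine system genes 4 rose and 0 fell (5 and 0 without CSF 3, ranges 4 to 5 and 0 to 0). CXCL8, the neutrophil attractant interleukin-8, was at 0.872, 0.985 and 1.26 CPM in media and 12.4, 12.2 and 13.2 CPM in CSF (log2 2.74, adjusted p = 2.92e-05). CCR7, a homing receptor of lymphocytes that is known for its part in leukemic entry to the central nervous system in T-cell disease, was at 0.314, 0.457 and 0.529 CPM in media and 7.28, 7.94 and 10.1 CPM in CSF (log2 2.71, adjusted p = 6.08e-05). Both were near or under 1 CPM in media and clearly present in each CSF library. CXCR4, the receptor that holds B precursors in marrow, was not called (221, 208 and 213 CPM in media and 247, 237 and 267 CPM in CSF, log2 0.22), and was named after its value was seen. Of 14 integrin and adhesion genes 7 rose and 1 fell (10 and 2 without CSF 3, ranges 6 to 10 and 0 to 2). ITGAM and ITGB2, whose products pair as the integrin Mac-1, both rose. ITGAM was at 6.70, 7.39 and 6.68 CPM in media and 53.7, 60.2 and 42.6 CPM in CSF, and ITGB2 at 16.3, 15.1 and 13.5 CPM in media and 89.8, 115 and 106 CPM in CSF (log2 2.73 and 2.71). ITGB2 overlaps an antisense gene. ITGA6, an integrin chain that binds laminin, was at 6.87, 8.51 and 7.81 CPM in media and 16.2, 15.97 and 9.05 CPM in CSF, with groups apart but no call (log2 0.72, adjusted p = 0.0646), and was named after its value was seen. Of 9 RGS genes 5 rose and 0 fell with or without CSF 3. RGS1, a regulator of lymphocyte migration, went from 0.699 ± 0.213 to 5.41 ± 0.533 CPM (log2 1.92).

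B-lineage genes moved in both directions. Of 24 B-lineage transcription factor genes 5 rose and 5 fell (5 and 8 without CSF 3, ranges 3 to 5 and 3 to 8). PRDM1, the plasma cell factor BLIMP1, was at 0.0698, 0.141 and 0.0662 CPM in media and 5.28, 5.34 and 3.15 CPM in CSF (log2 2.33, adjusted p = 0.000334). SPIB, an ETS factor, and ID2, an inhibitor of E proteins, rose by 1.58 and 1.43 on the log2 scale. BACH2, a repressor that opposes BLIMP1, was at 138, 154 and 152 CPM in media and 87.7, 85.4 and 36.5 CPM in CSF, lowest in CSF 3 (log2 -1.18, or -0.77 without CSF 3). PAX5, the factor that fixes B-cell identity, was at 634, 713 and 716 CPM in media and 442, 463 and 176 CPM in CSF and was not called with all libraries (log2 -1.05, adjusted p = 0.0796). It was chosen after its values were seen. Of 9 V(D)J recombination genes 0 rose and 3 fell (0 and 5 without CSF 3, ranges 0 to 0 and 1 to 5). DNTT, which adds random bases at the joints, was at 1203, 1137 and 1144 CPM in media and 536, 577 and 658 CPM in CSF (log2 -0.98, SE 0.12, adjusted p = 0.00176). RAG1, the recombinase that overlaps RAG2, went from 1291 ± 83.1 to 589 ± 274 CPM (log2 -1.26, or -0.81 without CSF 3). The calls of BACH2 and RAG1 were lost without media 1, 2 or 3 or CSF 2 (adjusted p up to 0.150, for RAG1).

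Of 15 genes of the pre-B receptor and its kinases 0 rose and 2 fell (2 and 5 without CSF 3, ranges 0 to 2 and 1 to 5), including IGLL1, part of the surrogate light chain, at 465, 439.5 and 404 CPM in media and 180, 215 and 281 CPM in CSF (log2 -0.97, adjusted p = 0.00893). Of 15 surface antigen genes 5 rose and 2 fell (5 and 5 without CSF 3, ranges 4 to 5 and 1 to 5). CD69 and CD83, markers of activated lymphocytes, rose by 1.74 and 1.06. CD24 and MME, which encodes CD10, the common antigen of B-precursor leukemia, went from 733 ± 11 to 370.3 ± 32.1 CPM and from 246 ± 12.2 to 126 ± 29.4 CPM (log2 -0.99 and -0.98). CD22, a target of antibody therapy, had a log2 difference of 0.39 (called, adjusted p = 0.0381), and was named after its value was seen. The call of MME was lost without media 2 or 3 (log2 -0.79 to -1.13 over the fits without 1 library, adjusted p up to 0.0555). The call of CD22 was lost without media 1, 2 or 3 or CSF 2 (log2 0.34 to 0.43 over the fits without 1 library, adjusted p up to 0.178).

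Antigen presentation and interferon-stimulated genes rose in a minority of members with all 6 libraries. Of 15 MHC class I genes 2 rose and 0 fell (6 and 0 without CSF 3, ranges 1 to 6 and 0 to 0), a share near the 16% of all genes, and of 12 MHC class II genes 3 rose and 0 fell (6 and 1 without CSF 3, ranges 0 to 6 and 0 to 1). TAP1, the peptide transporter, which overlaps PSMB9, went from 67.03 ± 2.37 to 126 ± 5.85 CPM (log2 0.90, adjusted p = 0.00140), and HLA-DMA, which loads class II peptides, from 40.95 ± 2.1 to 74.2 ± 15.1 CPM (log2 0.83). Of 24 interferon-stimulated genes 7 rose and 0 fell (12 and 0 without CSF 3, ranges 4 to 12 and 0 to 0). IRF7, the master regulator of type I interferon, and USP18, which limits interferon signalling, rose by 1.16 and 1.14 on the log2 scale, while ISG15 lay at 29.6, 26.3 and 26.8 CPM in media and 43, 67.4 and 108 CPM in CSF (log2 1.27). The call of HLA-DMA was lost without media 1 or 3 (log2 0.67 to 0.92 over the fits without 1 library, adjusted p up to 0.0654). The call of ISG15 was lost without media 1, 2 or 3 or CSF 2 (log2 0.94 to 1.60 over the fits without 1 library, adjusted p up to 0.0943).

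Calls among energy and lipid genes were in both directions. Over all tested genes the shares were 16% higher and 3.81% lower, or 30% and 11.7% without CSF 3. Of 10 TXNIP and glucose uptake genes 2 rose and 2 fell (4 and 2 without CSF 3, ranges 2 to 4 and 0 to 2). TXNIP, which blocks glucose uptake, was at 53.4, 55.9 and 57.5 CPM in media and 165, 157 and 138 CPM in CSF (log2 1.45, adjusted p = 0.000318), and the neuronal-type glucose carrier gene SLC2A3 rose by 1.15. HK2, a hexokinase, went from 125 ± 6.83 to 71.6 ± 18.5 CPM (log2 -0.83). Of 17 glycolysis genes 1 rose, the enolase gene ENO2 (log2 1.06), and 1 fell, HK2 (2 and 3 without CSF 3, ranges 1 to 2 and 0 to 3). Of 13 hypoxia genes 3 rose and 0 fell (5 and 0 without CSF 3, ranges 3 to 5 and 0 to 0), among them ADM, a vasodilator peptide gene, from 0.413 ± 0.143 to 3.36 ± 0.672 CPM and VEGFA, the angiogenic factor gene, from 12.3 ± 0.449 to 23.1 ± 3.28 CPM (log2 1.62 and 0.85). Of 21 cholesterol synthesis and SREBP genes 1 rose and 3 fell (3 and 6 without CSF 3, ranges 0 to 4 and 0 to 6), against 16% and 3.81% of all tested genes. The fallers were INSIG1, DHCR7 and the squalene epoxidase gene SQLE (log2 -0.50, -0.52 and -0.60). Of 8 LXR targets 1 rose and 0 fell (4 and 0 without CSF 3, ranges 0 to 4 and 0 to 0), ABCG1 (log2 0.58), and of 10 fatty acid synthesis genes 0 rose and 1 fell (2 and 3 without CSF 3, ranges 0 to 2 and 0 to 3), ELOVL6 (log2 -0.61). The calls of HK2 and INSIG1 were lost without media 1, 2 or 3 or CSF 2 (adjusted p up to 0.139, for INSIG1). The calls of DHCR7, SQLE and ELOVL6 were lost without media 1, 2 or 3 (adjusted p up to 0.0891, for DHCR7). The call of ABCG1 was lost without media 1, 2 or 3 or CSF 1 or 2 (log2 0.51 to 0.67 over the fits without 1 library, adjusted p up to 0.133).

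Protein quality, lysosome, redox and metal genes were called in part. The shares over all tested genes were 16% higher and 3.81% lower, or 30% and 11.7% without CSF 3. Of 13 cytosolic heat shock genes 1 rose and 3 fell (1 and 7 without CSF 3, ranges 0 to 1 and 1 to 7). HSPA8, the constitutive HSC70 chaperone, was at 2918, 2874 and 2910 CPM in media and 1760, 1732 and 1953 CPM in CSF (log2 -0.68, adjusted p = 0.00584), and the small heat shock gene HSPB1 was at 85.5, 76.2 and 72.7 CPM in media and 117, 168 and 268 CPM in CSF, highest in CSF 3 (log2 1.15). Of 22 ER chaperone and unfolded protein genes 1 rose and 1 fell (5 and 3 without CSF 3, ranges 0 to 5 and 0 to 3), CRELD2 and EIF2AK3, the gene of the sensor PERK (log2 0.75 and -0.77). Of 25 autophagy and lysosome genes 8 rose and 0 fell (12 and 0 without CSF 3, ranges 1 to 12 and 0 to 0), among them the protease gene CTSL (log2 0.83), GABARAPL1 (0.77) and the autophagy receptor gene SQSTM1 (0.65). With quantile normalization 1 of the 25 was called, against 2250 of 13460 tested genes. Of 19 redox genes 3 rose and 0 fell (5 and 1 without CSF 3, ranges 0 to 5 and 0 to 1), a share of rises near that of all tested genes. The largest of these rises was in the glutathione peroxidase gene GPX1, from 95.3 ± 8.15 to 247 ± 90.98 CPM (log2 1.30). Of 9 iron genes 2 rose and 0 fell (4 and 2 without CSF 3, ranges 0 to 4 and 0 to 2), the ferritin gene FTL (log2 0.79) and the ferric reductase gene CYBRD1 (0.65). Of 6 metallothionein and zinc genes limma called 0 (1 higher and 2 lower without CSF 3), edgeR 0 and DESeq2 2 lower, with 1 at an unadjusted p under 0.05. DESeq2 called 1424 of 13460 tested genes lower. Of 11 tested genes of synapses and neurons 2 rose and 0 fell (6 and 0 without CSF 3, ranges 1 to 6 and 0 to 0), ENO2 and the calcium channel gene CACNA1A (log2 0.52). The calls of HSPB1, CRELD2, EIF2AK3, SQSTM1, FTL, CYBRD1 and CACNA1A were lost without media 1, 2 or 3 or CSF 2 (adjusted p up to 0.156, for EIF2AK3). The call of GABARAPL1 was lost without media 1 or 3 (log2 0.69 to 0.88 over the fits without 1 library, adjusted p up to 0.0605). The call of GPX1 was lost without media 3 or CSF 2 (log2 1.03 to 1.55 over the fits without 1 library, adjusted p up to 0.0585).

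The response in REH differed from that in NALM-6 for 607 of 14364 genes (4.23%), tested as the difference of the CSF effects in limma over all 12 libraries, 435 with a higher and 172 with a lower value in REH. At an unadjusted p under 0.05 there were 2519. Without REH CSF 3 there were 640 calls. In NALM-6 media 1, ribosomal protein genes took 21.7% of the reads, and without that library and REH CSF 3 there were 2198 calls. PLK2, induced in REH, had 0 reads in all 3 NALM-6 media libraries and was at 0.133 ± 0.172 CPM in NALM-6 CSF (REH minus NALM-6 response 3.64, SE 0.17, adjusted p = 2.60e-06). The receptor gene for CXCL8, CXCR2, was at 0.279, 0.176 and 0.165 CPM in REH media and 15.9, 13.6 and 11.96 CPM in REH CSF, and in NALM-6 it had 0 reads in media and was at 0.204 ± 0.106 CPM in CSF (difference 3.35, adjusted p = 2.60e-06). LIF had 0 reads in NALM-6 media and was at 0.780 ± 0.116 CPM in NALM-6 CSF (difference 3.01, adjusted p = 2.60e-06). As ratios of group means, LIF was 55.8-fold higher in CSF in REH and at least 25.7-fold higher in NALM-6 (against a floor of 3 reads over the media group), so that which line had the larger ratio is not set. RGS16 was present in NALM-6 before CSF, at 88.7 ± 13.2 CPM in media and 333 ± 12.2 CPM in CSF, and its log2 response was smaller there (difference 3.29, adjusted p = 9.42e-06).

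Other genes responded less in REH. ARRDC4, an arrestin-domain gene that limits glucose uptake, was at 2.65, 2.15 and 2.68 CPM in REH media and 5.09, 4.74 and 2.59 CPM in REH CSF, against 5.37 ± 3.50 CPM in media and 195 ± 0.933 CPM in CSF in NALM-6 (difference -4.63, SE 0.59, adjusted p = 0.00107). The cytokine gene TNF, already at 34.95 ± 2.07 CPM in REH media, was at 54.4 ± 8.83 CPM in CSF, whereas in NALM-6 it went from 0.289 ± 0.0816 to 13.2 ± 0.794 CPM (difference -2.85, adjusted p = 3.31e-05). EGR1 differed in the same direction, at 1.40 ± 0.694 CPM in media and 15.3 ± 0.882 CPM in CSF in NALM-6 (difference -2.42, adjusted p = 0.000783), as did TNFAIP3, which went from 67.1 ± 39.8 to 222 ± 3.39 CPM there (difference -2.65, adjusted p = 0.0426). PIF1 fell further in REH than in NALM-6, where it was at 31.8 ± 6.91 CPM in media and 11.7 ± 2.63 CPM in CSF (difference -1.83, adjusted p = 0.00273). For ATF3, JUN, PLK1 and CDC20 the difference between lines was not called (adjusted p = 0.642, 0.610, 0.234 and 0.207), which does not show that the lines responded alike. Without NALM-6 media 1 and REH CSF 3 the difference was called for PLK1 (-0.44, adjusted p = 0.00472) and CDC20 (-0.79, adjusted p = 0.000207).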

How the data were processed

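Poly(A) RNA libraries (stranded TruSeq, per the labels) of REH and NALM-6 in 2 fluids were analysed, 12 libraries in 4 groups of 3. The authors deposited CPM values for 60617 genes. Each column sums to 1000000, and multiplying by the reads that the smallest steps imply gave whole reads for 100% of values (tolerance 1e-06). Per the submitters' processing notes, reads were handled with HISAT2 2.1.0 and featureCounts, beside FastQC, Trimmomatic 0.33 and edgeR, and the build was GRCh38. Neither the strand setting of the counting nor the annotation release was stated by the submitters in what was read for this work, so overlapping genes are treated as uncertain. The text marks an overlap for some genes only. PRDM1, TNFRSF10B, TYMS, SLC19A1, GART, CCNE2, MAT2A, ENO2 and CRELD2, among others, also overlap another tested gene. GENCODE 29 matched 58542 gene IDs and gave positions and biotypes.

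Genes at 1 CPM or more in at least 3 of the 6 REH libraries were tested with limma 3.58.1 (R 4.3.3, variance trend) on log2(CPM + 1), adjusted by the Benjamini-Hochberg method over all of them and called under 0.05. Fold changes on this scale understate those of low genes. The difference from NALM-6 was an interaction term over 12 libraries. The 22 alternatives included edgeR 4.0.16 and DESeq2 1.42.0 on the recovered reads, other scalings, filters and pseudocounts, and each library left out. Totals of 23412869 to 30236278 reads put 3 reads at 0.0992 to 0.128 CPM in REH. The fitting code was tested on simulated data.

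The genes named were, first, the 12 protein-coding genes that rose most and the 12 that fell most. They had to be called with and without CSF 3, with a mean of at least 5 CPM in the higher group. Their CSF and media values also had to lie apart without overlap. Added to these were up to 4 called members with the largest change per list, all measured antifolate genes, and the 4 largest interactions in each direction. Results for some genes these rules name are not reported here. Other genes are marked as chosen after their values were seen. Gene lists and the genes compared were chosen with earlier results of these data known.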

Additional observations from a re-analysis of the deposited data

Results flagged for a closer look

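Of 184 genes named by rule and not withheld, 34 responded to CSF differently in REH and NALM-6. The test was limma's interaction term over 12 libraries, with an adjusted p under 0.05. Among all 14364 genes tested the share was 4.23%. The naming rules took large REH responses and the largest interactions, so a higher share among named genes was set by their choice. All 34 were also called without NALM-6 media 1 and REH CSF 3 together, the fit with the most calls over all genes (2198). How many of the 34 were called with edgeR (124 calls in all) or with a replicate block (305) is not given here. Values are the response of REH minus that of NALM-6 on log2(CPM + 1), a scale on which a line with few reads has a small response.

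For 24 genes the value was above 0. It was 3.64 for PLK2, 3.47 for the mucin gene MUC5AC, 3.35 for CXCR2, 3.29 for RGS16, 3.01 for LIF, 2.47 for FDXR, 2.04 for GDF15 and 2.0 for PIK3IP1. For surface and cytoskeletal genes it was 1.97 for ITGB2, 1.91 for CSPG4, 1.81 for ACTA2, 1.81 for SULF2 and 1.60 for ITGAM. Among signalling and chemokine genes it was 1.52 for RGS1, 1.51 for CCL3, 1.04 for CXCL8, 1.02 for TNFSF9, 0.95 for CCR7 and 0.91 for CCL5. The remaining values were 1.44 for ADM, 1.28 for DDIT4, 0.96 for SLC7A3, 0.83 for CTSL and 0.72 for SESN2. Of these 24 genes, 11 had at most 3 reads over the NALM-6 media libraries. SLC7A3 and CTSL had 0 reads in NALM-6 in both fluids, so their values are the response of REH alone. As ratios of group means the order of the lines was the other way for ITGAM (7.54-fold in REH, 14.6-fold in NALM-6) and for CXCL8 (12.1-fold in REH, at least 74.2-fold in NALM-6 against a floor of 3 reads over the media group). For 8 genes with few or no reads in media, CCR7 among them, the order of the ratios is not set.

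For 10 genes the value was below 0. The 3 that involve TNF signalling were TNF (-2.85), TNFAIP3 (-2.65) and ICAM1 (-1.30). Early response genes were EGR1 (-2.42), DUSP10 (-1.54) and CD69 (-1.35). The mitosis gene PIF1 fell further in REH (-1.83), GAS2L3 (-1.87) fell in REH and was at 0.357 CPM in NALM-6 media and 0.756 CPM in NALM-6 CSF, CDKN1A rose less (2.25 in REH and 3.07 in NALM-6, difference -0.83), and ARRDC4 had the value farthest from 0 (-4.63).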

How the results depend on the processing

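The direction of every one of the 169 called named genes held in each alternative run. Of their values under alternatives 3312 kept their side of the threshold and 389 missed it, most often without media 3 (62 genes), media 1 or media 2 (57 each) or CSF 2 (44). No call of these genes was lost without CSF 3, which the naming rule fixed for the largest rises and falls. Calls over all tested genes also rose to 5607 in that fit. Of 277 called list members and named genes, 124 lost the call without at least 1 library, of which 110 had differences under 1 on the log2 scale.

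The number of genes called (2669) was 6774 with array weights, 5728 with edgeR and 5874 with median-of-ratios scaling when CSF 3 was also left out, and 1159 to 5607 with 1 library left out. Genes higher (2156) numbered 4646 with array weights, 1416 with a filter at 5 CPM, 1280 with quantile normalization and 1041 to 4032 with 1 library left out. Genes lower (513) numbered 1424 with DESeq2, 949 with TMM scaling, 970 with quantile normalization, 775 with edgeR, 1083 with median-of-ratios scaling, 255 with all 12 libraries in the fit, 2128 with array weights, 2567 with edgeR and 2948 with median-of-ratios scaling when CSF 3 was also left out, and 109 to 1575 with 1 library left out. The higher share of calls was 80.8%, 60.3% with median-of-ratios scaling and 49.8% when CSF 3 was also left out. Differences between lines (607) numbered 124 with edgeR, 2198 without NALM-6 media 1 and REH CSF 3, and 411 to 995 with 1 library left out (995 without NALM-6 media 1). The cause of these shifts was not tested.

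Same-numbered libraries deviated from their group means with correlations of -0.48, 0.25 and -0.33. In groups this small the deviations from a mean depend on each other, so these values cannot decide whether the numbers pair the libraries. With the replicate number as a block, 1600 genes were called, 1405 higher and 195 lower, and 305 differed between lines.

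Reversed values concerned genes that were not called. TYMS was at -0.015 with median-of-ratios scaling without CSF 3, SLC19A1 at 0.062 without CSF 1 (-0.15 without CSF 3), and ABCC1 at 0.053 with array weights and 0.066 without CSF 3 (-0.30 without CSF 2). ABCC5 was at -0.071 (DESeq2), -0.10 (TMM), -0.053 (edgeR), -0.11 (median-of-ratios), -0.000689 (quantile) and from -0.11 to 0.22 with 1 library left out. ATP5F1B, a subunit of ATP synthase, was at 0.038 without CSF 1 and 0.00629 without CSF 2 (-0.15 to 0.038 with 1 library left out). ATP5F1A, another subunit, was at -0.057 (DESeq2), -0.095 (TMM), -0.063 (array weights), -0.046 (edgeR), -0.11 (median-of-ratios), -0.23 (edgeR without CSF 3, adjusted p = 0.0182), -0.25 (median-of-ratios without CSF 3, adjusted p = 0.0110) and from -0.12 to 0.13 with 1 library left out. Some uncalled genes gained a call without CSF 3.

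CSF 3 limits values of long genes and of ribosomal protein and respiratory chain genes, and 3 libraries a group with unknown culture origin limit all p-values. Depth limits genes near 0.1 CPM, the level of 3 reads.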

Other observations

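Long non-coding RNA genes, chosen for description after their values were seen, were called about as often as all genes. Of 1205 tested, 233 were higher (19.3%) and 53 lower (4.4%) by limma, against 16.1% and 3.83% of 11473 protein-coding genes. Without CSF 3, 353 of the 1205 were higher and 115 lower, and 3537 and 1399 of the protein-coding genes. PINCR and PURPL, which are p53-induced RNAs, went from 0.0344 ± 0.00114 to 6.44 ± 0.699 CPM and from 3.76 ± 0.182 to 25.1 ± 11.3 CPM (mean ± SD, n = 3; log2 2.84 and 2.34), the latter with 33.1 and 30.1 CPM in CSF 1 and 2 and 12.2 CPM in CSF 3. PVT1, the neighbour of MYC, was at 12.8, 13.3 and 13.2 CPM in media and 43.2, 43.4 and 53.98 CPM in CSF (log2 1.76, adjusted p = 0.000229), while MYC fell. ITGB2-AS1, which overlaps ITGB2, went from 0.274 ± 0.0553 to 12.6 ± 2.27 CPM. The snoRNA host genes SNHG4 and SNHG26 went from 106 ± 1.56 to 39.5 ± 2.95 CPM and from 12.7 ± 0.712 to 4.57 ± 0.673 CPM (log2 -1.41 and -1.31).

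From the 11473 tested protein-coding genes, 42 were picked that were called higher with and without CSF 3. They had at most 9 reads over the 3 media libraries and at least 1 CPM in each CSF library. Genes with few reads in CSF were not counted in the same way. Beside GDF15 and SULF2 they included NECTIN4, an adhesion molecule, at 0.0698, 0 and 0.0992 CPM in media and 12.1, 11.4 and 12.1 CPM in CSF. PRF1, which encodes the pore-forming protein of cytotoxic cells, was at 0.0698, 0.0704 and 0.0992 and 6.07, 7.86 and 5.91 CPM. The acetylcholinesterase gene ACHE was at 0.0698, 0.0352 and 0.0662 and 3.95, 6.45 and 4.08 CPM, and TGFBI, an extracellular matrix gene, at 0.0349, 0.0704 and 0.0992 and 5.24, 5.34 and 5.15 CPM. In each of these genes every CSF library lay above every media library. The choice of genes fixes this and their calls, and they passed the 1 CPM filter through the CSF libraries only.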
